A study of Mus musculus with 12 samples.

Results

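Polycomb proteins were examined as the RNA of 34 genes that encode subunits of the Polycomb repressive complexes and of a histone deubiquitinase that acts with them. The genes were listed by name as known subunits, not by a threshold on their values, and were 34 of the 35976 genes in the count table. All 34 had enough counts to be tested, among 15334 genes that were. Libraries were made from polyadenylated RNA of CD45.2-positive bone marrow cells sorted by flow cytometry from C57BL/6 mice, CD45.2 being one of the 2 allelic versions of CD45, a surface protein of leukocytes. The 12 libraries formed 4 groups of 3. These were leukemia carrying BRD9-NUTM1 (BN1), leukemia carrying MLL-AF9 (MA9), leukemia carrying MLL-ENL (ME) and normal marrow (WT). The sources used here do not give how the leukemias were made, which host they grew in, the age of the mice, or whether a group's libraries come from different mice or clones. P-values therefore measure only the spread between these libraries, which may be technical.

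Polycomb repressive complex 2 (PRC2) methylates lysine 27 of histone H3 at silent genes, and PRC1 attaches ubiquitin to histone H2A. A canonical PRC1 carries a CBX protein that reads the PRC2 mark and a PHC protein that joins complexes together, while variant PRC1 complexes carry RYBP or YAF2 instead. Subunits come in families of related genes that can take the same place in a complex. In blood cells these complexes keep genes of other lineages silent, and several of their genes are mutated in human leukemia.

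Normal marrow held RNA of several blood lineages that was scarce in the leukemias. The summed level of 10 erythroid markers was 20.3 to 22.0 CPM (counts scaled to library size) in BN1, 27.7 to 33.0 CPM in MA9 and 3.39 to 3.58 CPM in ME, against 33613 to 43619 CPM in WT. The 10 neutrophil markers summed to 4385 to 4633 CPM in BN1, 533 to 574 CPM in MA9 and 278 to 326 CPM in ME, against 56574 to 59681 CPM in WT. B cell markers summed to at most 21.7 CPM in any leukemia library and to at least 1272 CPM in WT, with Ms4a1 at 0 in MA9 and ME. The 5 leukocyte markers, Ptprc among them, were present in all libraries, with sums of 3112 to 3274 CPM in BN1, 3728 to 3741 CPM in MA9, 3584 to 3904 CPM in ME and 5191 to 5318 CPM in WT. Monocyte and macrophage markers, 10 in number, summed to 5004 to 5174 CPM in BN1, 1625 to 1691 CPM in MA9 and 2049 to 2064 CPM in ME, against 2110 to 2306 CPM in WT. F13a1 made up most of each leukemia sum, at a mean of 3433, 876 and 1396 CPM in BN1, MA9 and ME, against 781 CPM in WT. Of the 10 markers, 5 were called higher and 5 lower in BN1 against WT, 2 and 7 in MA9, and 1 and 9 in ME. The 5 primary granule genes in the table, which mark early myeloid cells, summed to 21286 to 21912 CPM in BN1, 10992 to 11520 CPM in MA9 and 16800 to 17583 CPM in ME, against 1516 to 1615 CPM in WT. The 10 T and NK cell markers summed to 141 to 147 CPM in BN1, 22.7 to 26.9 CPM in MA9 and 7.57 to 9.89 CPM in ME, against 367 to 390 CPM in WT. Most of each leukemia sum was Nkg7, at a mean of 144, 22.6 and 6.41 CPM in BN1, MA9 and ME, against 40.0 CPM in WT. In BN1 against WT, Nkg7 was called higher and the other 9 of these markers lower. Marker levels thus moved with the comparisons against WT and with those between leukemias, and their part in the results was not tested. In such bulk samples, fewer cells of a type and less RNA per cell cannot be told apart. Library totals ran from 18292636 to 25732049 counts.

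Changes in the Polycomb genes were mostly small and went both ways. In BN1 against WT, 8 of the 34 genes were higher and 14 lower at an adjusted p under 0.05, which is 64.7%, where 79.2% of all tested genes were called, 38.4% higher and 40.8% lower. In MA9 against WT, 14 were higher and 16 lower (88.2%), against 80.1% of all genes, of which 39.3% were higher and 40.8% lower. In ME against WT, 14 were higher and 15 lower (85.3%), against 79.2% of all genes, of which 39% were higher and 40.2% lower. The libraries of the groups compared did not overlap for 24 of the 34 genes in BN1 (80.3% of all genes), 28 in MA9 (80.9% of all genes) and 29 in ME (79.8% of all genes). The median log2 fold change of the 34 genes was -0.07 in BN1, -0.07 in MA9 and -0.02 in ME, beside -0.01 for all genes in each of these comparisons. The median absolute log2 fold change was 0.31 in BN1, 0.43 in MA9 and 0.49 in ME, beside 0.71, 0.75 and 0.72 for all genes in the same order. Falls of at least 2-fold were called for 5 of the 34 genes in BN1 (24.1% of all genes), 4 in MA9 (23.8% of all genes) and 6 in ME (23.9% of all genes). Of the 34, Phf19 alone rose by at least 2-fold, in MA9 (14.9% of all genes) and in ME (13.9%), and none did in BN1 (13.6%). The 3 comparisons share the WT libraries, so their likeness is no independent evidence.

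Across the leukemias, 11 genes were called lower than WT in all 3, namely Ezh1, Ezh2, Phf1, Cbx2, Cbx6, Cbx7, Phc1, Pcgf2, Pcgf6, Rybp and Asxl1. Another 7 were called higher in all 3, namely Suz12, Jarid2, Ring1, Pcgf5, Kdm2b, Bcor and L3mbtl2. In BN1, MA9 and ME taken singly, 40.8%, 40.8% and 40.2% of all tested genes were called lower and 38.4%, 39.3% and 39% higher. The share of all genes called in the same direction in all 3 was not counted, so these 2 counts cannot be set against it. Cbx8 and Pcgf1 were called in none of the comparisons with WT. The remaining genes were called in some leukemias and not in others, and 2 of them, Yaf2 and Scmh1, were called lower in BN1 and higher in MA9 and ME. Calls against WT that did not hold in every setting, leaving aside a test against a minimum fold, are given with each gene below.

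**Figure D1:**
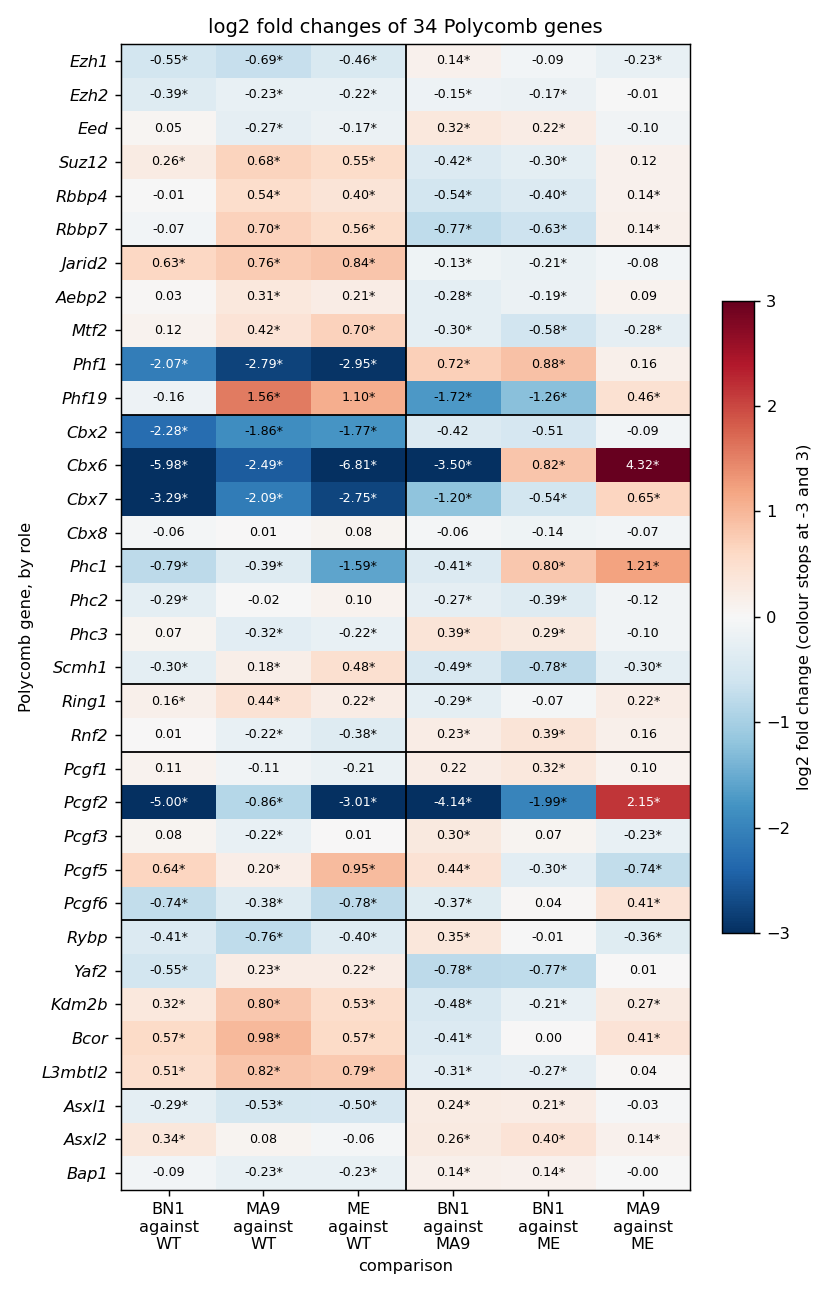
Log2 fold change of each of the 34 Polycomb genes (rows, grouped by role) in the 6 comparisons (columns), with an asterisk where the adjusted p was under 0.05. Colour runs from blue (lower in the first-named group) to red (higher), and it stops at -3 and 3. Phf1, Cbx2, Cbx6, Cbx7 and Pcgf2 stand out as blue in the columns against WT, and Phf19 is red in MA9 and ME alone.

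The core of PRC2 is made of an EZH enzyme, the scaffold SUZ12, the methyl-lysine reader EED and a histone chaperone, RBBP4 or RBBP7. The enzyme genes were lower in every leukemia. Ezh2, the main methyltransferase of dividing cells, stood at 98.8, 99.9 and 93.4 CPM in BN1, 104, 117 and 104 CPM in MA9 and 102, 105 and 122 CPM in ME, against 127, 125 and 130 CPM in WT. All 9 leukemia libraries lay below all 3 WT libraries, but the gap was narrow for ME replicate 3. The log2 fold change was -0.39 ± 0.06 (SE; adjusted p = 2e-06) in BN1, -0.23 ± 0.06 (adjusted p = 0.0011) in MA9 and -0.22 ± 0.06 (adjusted p = 0.002) in ME. Ezh1, its less active relative, stood at 46.2, 46.6 and 47.6 CPM in BN1, 42.6, 43.3 and 41.8 CPM in MA9 and 49.7, 50.3 and 49.7 CPM in ME, against 66.1, 72.8 and 67.4 CPM in WT. It was lower with log2 fold changes of -0.55, -0.69 and -0.46 in BN1, MA9 and ME (SE 0.06 each; largest adjusted p = 2.4e-08), again without overlap.

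Suz12 went the other way. Its level was 169, 172 and 158 CPM in BN1, 221, 233 and 215 CPM in MA9 and 194, 200 and 220 CPM in ME, against 148, 137 and 133 CPM in WT, with no overlap between any leukemia and WT. The log2 fold change was 0.26 ± 0.05 (adjusted p = 9.4e-05) in BN1, 0.68 ± 0.05 (adjusted p = 3.7e-12) in MA9 and 0.55 ± 0.05 (adjusted p = 2.6e-10) in ME. Eed was at 58.1, 62.9 and 63.2 CPM in BN1, 46.8, 51.2 and 49.6 CPM in MA9 and 52.7, 51.3 and 54.5 CPM in ME, against 57.4, 60.2 and 60.5 CPM in WT. It was lower in MA9 (-0.27 ± 0.06, adjusted p = 0.00015) and in ME (-0.17 ± 0.06, adjusted p = 0.011), whereas the BN1 and WT libraries overlapped (0.05 ± 0.06, adjusted p = 0.43). With upper-quartile scaling the ME call was lost (adjusted p = 0.067).

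The chaperone genes separated the MLL-fusion leukemias from BN1. Rbbp4 was at 258, 265 and 253 CPM in BN1, 374, 387 and 368 CPM in MA9 and 337, 328 and 360 CPM in ME, against 254, 262 and 263 CPM in WT. BN1 and WT libraries were interleaved (-0.01 ± 0.04), and every MA9 and ME library lay above them (0.54 ± 0.04 and 0.40 ± 0.04 against WT). Its X-linked relative Rbbp7 was at 119, 126 and 117 CPM in BN1, 210, 205 and 204 CPM in MA9 and 176, 182 and 203 CPM in ME, against 126, 130 and 126 CPM in WT. Rbbp7 was higher in MA9 (0.70 ± 0.05, adjusted p = 6e-13) and in ME (0.56 ± 0.05, adjusted p = 8.1e-11) and not called in BN1 (-0.07 ± 0.05, adjusted p = 0.18). With other size factors, a stricter filter or DESeq2 the small BN1 difference passed the threshold as lower (adjusted p = 0.029 to 0.049). Both chaperones also work outside PRC2, in histone deacetylase and chromatin assembly complexes. The X-inactivation transcript Xist was at 323 to 373 CPM in MA9, against at least 755 CPM in every other library, and the 4 Y-linked genes summed to 149 to 165 CPM in MA9 and to at most 0.629 CPM elsewhere. MA9 alone had this pattern, so a difference in the sex of the cells cannot be told apart from the fusion in any comparison with MA9. The part of the X chromosome in the Rbbp7 values was not tested.

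**Figure D2:**
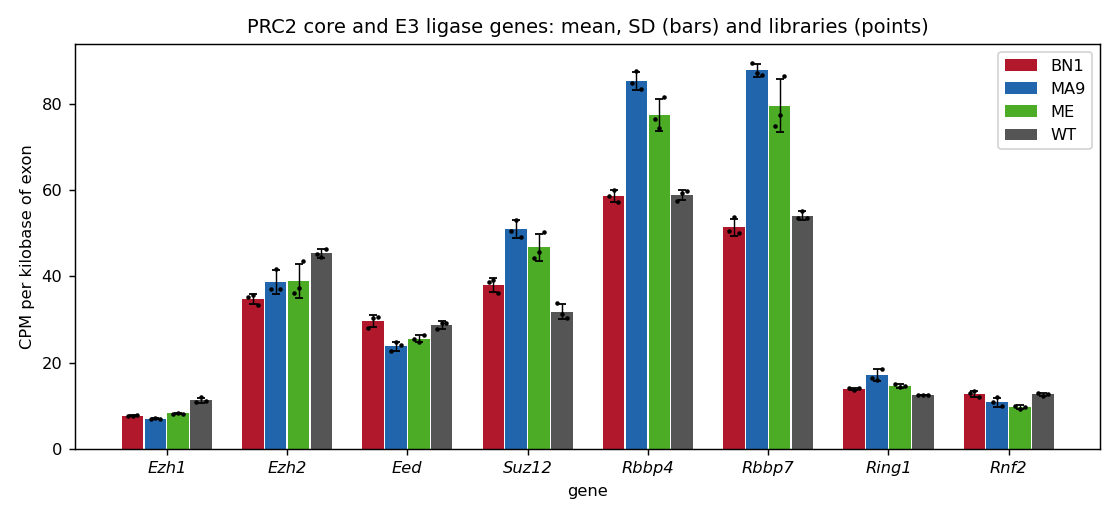
Level of the PRC2 core genes and of the PRC1 ligase genes Ring1 and Rnf2 in CPM per kilobase of exon, by group (BN1, MA9, ME and WT from left to right). Bars are means of 3 libraries with SD, and points are libraries. Rbbp4, Rbbp7 and Suz12 are tallest in MA9, and Ezh1 and Ezh2 are tallest in WT.

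Per kilobase of exon, which allows genes to be compared, Rbbp4 and Rbbp7 were the most abundant of the 34 RNAs in every group, at 51.4 to 87.8 CPM per kilobase. Ezh2 had rank 4 in all groups, at 34.8, 38.7, 39.1 and 45.4 CPM per kilobase in BN1, MA9, ME and WT. Of the RNA of the EZH pair, Ezh2 made up 81.9% ± 0.74 in BN1, 84.6% ± 0.73 in MA9 and 82.6% ± 1.4 in ME, against 80.1% ± 1.1 in WT (SD, n = 3). The proportions of the pair thus varied by a few percentage points, while both members were lower in each leukemia.

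The accessory subunits direct PRC2 to its sites, and related genes among them moved in opposite directions. PHF1, MTF2 and PHF19 are the Polycomb-like proteins, which bind unmethylated CpG-rich DNA and compete for the same place on SUZ12. Phf1 (chr17:26933052-26937908, mm10) was at 27.1, 30.7 and 29.99 CPM in BN1, 17.99, 16.8 and 18.6 CPM in MA9 and 19.3, 13.7 and 14.6 CPM in ME, against 117, 124 and 126 CPM in WT. Every leukemia library was thus far below every WT library, with log2 fold changes of -2.07 ± 0.08 (adjusted p = 2.1e-18) in BN1, -2.79 ± 0.09 (adjusted p = 1.4e-20) in MA9 and -2.95 ± 0.09 (adjusted p = 6.6e-21) in ME. Phf19 (chr2:34893757-34914026) was at 18.4, 16.1 and 18.2 CPM in BN1, 59.8, 53.2 and 60.8 CPM in MA9 and 41.5, 44.7 and 39.7 CPM in ME, against 17.2, 21.4 and 20.51 CPM in WT. It rose 2.94-fold in MA9 (1.56 ± 0.08, adjusted p = 4.6e-16) and 2.14-fold in ME (1.10 ± 0.08, adjusted p = 1.9e-12), while BN1 and WT libraries overlapped (-0.16 ± 0.09, adjusted p = 0.097). Without WT replicate 1 the BN1 difference was called lower (-0.25, adjusted p = 0.014), and likewise with other size factors or a stricter filter. Mtf2 was at 68.9, 69.2 and 61.8 CPM in BN1, 77.2, 92.9 and 76.1 CPM in MA9 and 97.0, 100 and 102 CPM in ME, against 66.2, 58.8 and 59.2 CPM in WT. It was higher in MA9 (0.42 ± 0.07, adjusted p = 4.9e-06) and ME (0.70 ± 0.07, adjusted p = 7.2e-10) and not called in BN1 (0.12 ± 0.07, adjusted p = 0.13), where it passed the threshold without WT replicate 1 (adjusted p = 0.031) or BN1 replicate 3 (adjusted p = 0.037), with upper-quartile scaling and with no low-count filter. Mtf2 shares 395 bases of exon with Tmed5 on the opposite strand, and the sources used here do not give whether counting used strand.

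The make-up of the Polycomb-like family differed between the groups. Phf1 supplied 34.4% ± 2.2 of the family's RNA per kilobase in BN1, 15.9% ± 1.1 in MA9 and 14.3% ± 2.6 in ME, against 69.4% ± 1.3 in WT (SD, n = 3). Phf19 supplied 14.6% ± 1.4, 36.6% ± 3.3 and 26.8% ± 1.5 in BN1, MA9 and ME, against 7.88% ± 0.74 in WT. Mtf2 supplied 51.0%, 47.6% and 58.8% in BN1, MA9 and ME, against 22.7% in WT, and was the leading member in each leukemia. No leukemia library overlapped a WT library in any of these shares.

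The other accessory subunits define another form of PRC2. Jarid2, whose protein binds PRC2 and nucleosomes carrying ubiquitinated H2A, was higher in all leukemias with log2 fold changes of 0.63, 0.76 and 0.84 in BN1, MA9 and ME (SE 0.05; largest adjusted p = 2.8e-12). Its libraries lay between 116 and 140 CPM in the leukemias, against 74.8 to 79.2 CPM in WT. Aebp2, its partner in the same form of PRC2, was higher in MA9 (0.31 ± 0.06, adjusted p = 6e-05) and ME (0.21 ± 0.06, adjusted p = 0.003) and not called in BN1 (0.03 ± 0.06, adjusted p = 0.69). Jarid2 made up 73.4%, 71.3% and 73.7% of the RNA of this pair per kilobase in BN1, MA9 and ME, against 64.6% in WT.

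Promoter windows of Phf1 and Phf19, which moved in opposite directions in MA9 and ME, and of Ezh2 are printed from RefSeq (GRCm38.p6), each from 250 bases before to 50 bases after the annotated start, on the gene's strand. Capitals mark matches, on either strand, to the E2F strings TTTGGCGC, TTTCGCGC, TTTCCCGC and TTTGCCGC, the E-box CACGTG, the ETS string CCGGAA, the RUNX string TGTGGT, the CCAAT box and the HOX with MEIS strings TGATTTAT, TGATTGAT and TGATTAAT. None of these strings contains another.
Phf1 (chr17:26932877-26933176, plus strand): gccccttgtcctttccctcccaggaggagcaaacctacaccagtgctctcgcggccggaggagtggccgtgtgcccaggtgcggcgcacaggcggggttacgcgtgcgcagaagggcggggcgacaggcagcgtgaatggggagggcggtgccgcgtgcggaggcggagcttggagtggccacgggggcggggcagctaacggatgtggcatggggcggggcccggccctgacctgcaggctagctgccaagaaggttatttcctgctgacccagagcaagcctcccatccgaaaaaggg
Phf19 (chr2:34913927-34914226, minus strand): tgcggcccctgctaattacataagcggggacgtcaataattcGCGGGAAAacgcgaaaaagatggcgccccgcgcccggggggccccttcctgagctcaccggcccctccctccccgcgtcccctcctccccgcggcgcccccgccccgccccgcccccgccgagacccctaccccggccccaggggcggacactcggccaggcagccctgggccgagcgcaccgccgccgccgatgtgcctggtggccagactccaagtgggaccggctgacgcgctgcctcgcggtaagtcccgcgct
Ezh2 (chr6:47594981-47595280, minus strand): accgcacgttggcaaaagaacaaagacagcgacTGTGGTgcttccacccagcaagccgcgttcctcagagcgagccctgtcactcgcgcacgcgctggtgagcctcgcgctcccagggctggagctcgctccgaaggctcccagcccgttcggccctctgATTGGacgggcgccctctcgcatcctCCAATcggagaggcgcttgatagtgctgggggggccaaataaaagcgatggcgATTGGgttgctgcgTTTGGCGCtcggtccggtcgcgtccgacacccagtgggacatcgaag
The Phf19 window held an E2F string and no other match, the Ezh2 window an E2F string, a RUNX string and 3 CCAAT boxes, and the Phf1 window none. Windows were found for 30 of the 34 genes and numbered 43. An E2F string was present in 3 of them (6.98%), those of Ezh2, Phf19 and Suz12, and in 2.27% of all 32851 windows of the table. The E-box was in 18.6% of the 43 windows and 7.15% of all, the ETS string in 18.6% and 14.9%, the RUNX string in 23.3% and 16.8%, and the CCAAT box in 39.5% and 37.4%. HOX with MEIS strings were in 0 of the 43 windows and in 2.39% of all. The windows are rich in CpG, with 24 such dinucleotides in that of Phf1, 38 in that of Phf19 and 31 in that of Ezh2. E2F factors act in the cell cycle. The summed level of 20 proliferation genes was 2655 to 2702 CPM in BN1, 4436 to 4486 CPM in MA9 and 3947 to 4242 CPM in ME, against 4456 to 4684 CPM in WT, and the part of proliferation in the Ezh2, Phf19 and Suz12 values was not tested.

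In PRC1, Cbx2, Cbx6 and Cbx7 fell in every leukemia, whereas Cbx8 did not pass the test in any. CBX proteins read methylated H3 lysine 27 and place canonical PRC1 on chromatin. Cbx7, the form linked to self-renewal of normal blood stem cells, was at 1.69, 1.75 and 2.26 CPM in BN1, 5.18, 3.75 and 4.28 CPM in MA9 and 2.51, 2.27 and 3.67 CPM in ME, against 16.3, 19.4 and 20.51 CPM in WT. No library of a leukemia came near WT, and the log2 fold change was -3.29 ± 0.17 in BN1, -2.09 ± 0.15 in MA9 and -2.75 ± 0.17 in ME (largest adjusted p = 8.6e-13). Cbx6, a less studied member, was at 0.782, 0.495 and 0.728 CPM in BN1, 7.03, 7.85 and 8.11 CPM in MA9 and 0.435, 0.363 and 0.333 CPM in ME, against 39.6, 45.8 and 43.7 CPM in WT. The fold changes were the largest of the 34 genes in BN1 (-5.98 ± 0.15, adjusted p = 1.5e-23) and ME (-6.81 ± 0.17, adjusted p = 1.6e-23), whereas MA9 retained an intermediate level (-2.49 ± 0.11, adjusted p = 4.3e-18). The ME libraries held 23 counts of Cbx6 in all, against 2402 in WT. Cbx6 shares 563 bases of exon with Npcd on the same strand, a gene with 0 counts in the table.

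Cbx2, whose protein compacts nucleosomes, was at 1.36, 1.48 and 1.95 CPM in BN1, 2.36, 2.20 and 1.89 CPM in MA9 and 3.14, 2.18 and 1.5003 CPM in ME, against 6.82, 8.39 and 8.32 CPM in WT. The leukemias overlapped each other and stood below WT, with log2 fold changes of -2.28, -1.86 and -1.77 (SE 0.21 each; largest adjusted p = 1e-08). Cbx8, which is required in a mouse model of MLL-AF9 leukemia, was not called in any comparison. It stood at 16.9, 18.3 and 16.6 CPM in BN1, 19.2, 17.3 and 17.6 CPM in MA9 and 20.02, 19.6 and 17.2 CPM in ME, against 15.8, 20.1 and 17.97 CPM in WT. Every group overlapped every other, and the log2 fold changes against WT were -0.06, 0.01 and 0.08 (SE 0.10 each; smallest adjusted p = 0.46). Cbx2 and Cbx8 lie 5034 bases apart on chromosome 11.

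Among these 4 genes Cbx8 supplied 81.5% ± 3.0 of the RNA per kilobase in BN1, 61.3% ± 0.28 in MA9 and 78.0% ± 2.5 in ME, against 25.1% ± 1.0 in WT (SD, n = 3), where Cbx6 led with 37.1%.

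**Figure D3:**
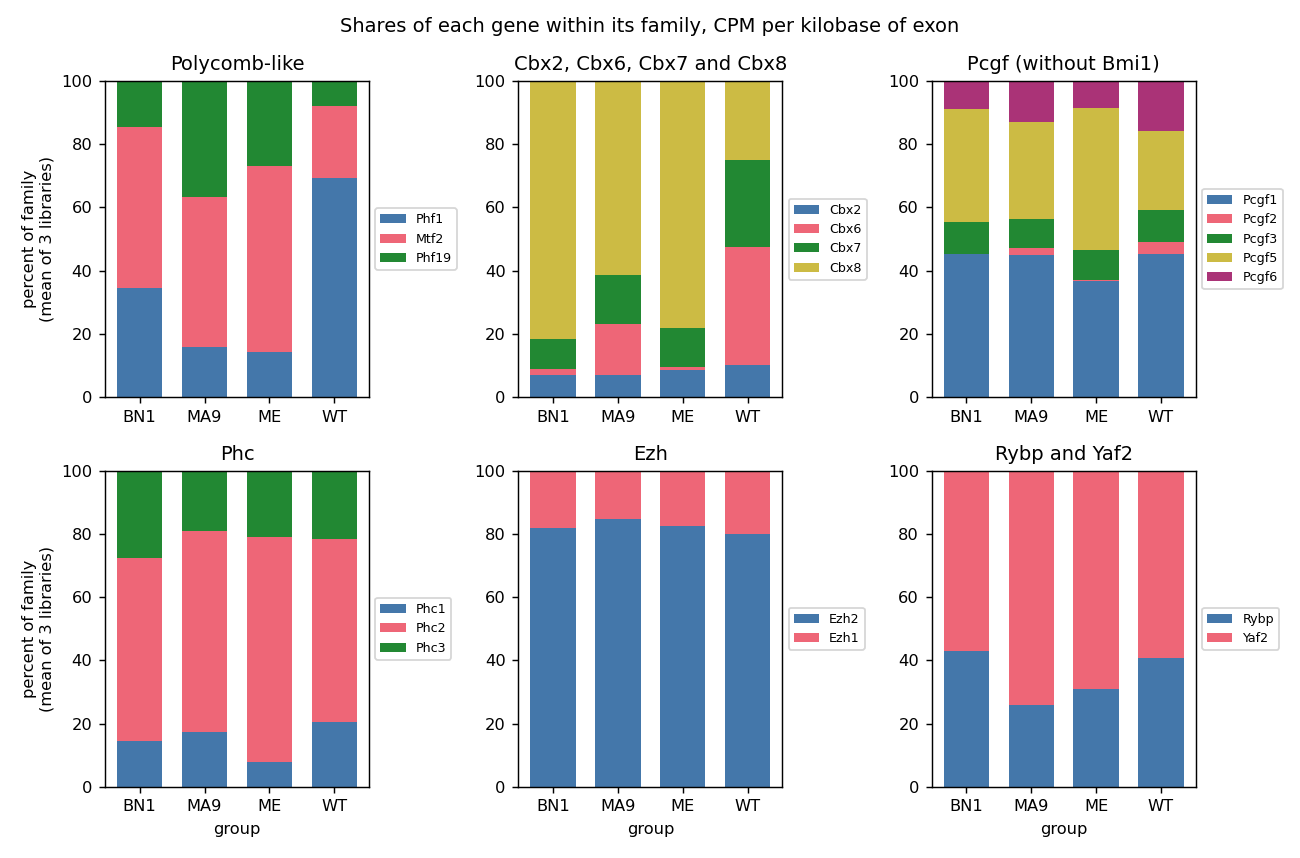
Share of each gene in the RNA of its family (percent, mean of 3 libraries, CPM per kilobase of exon) by group, for 6 families. Phf1 fills most of the Polycomb-like bar in WT and a minority in the leukemias, Cbx8 fills most of the Cbx bar in the leukemias alone, and the Ezh bars are nearly alike.

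Cbx6 and Cbx7 are neighbours, 81118 bases apart on chromosome 15, and their promoter windows are shown because both genes fell in all leukemias. The same strings are in capitals.
Cbx6 (chr15:79834284-79834583, minus strand): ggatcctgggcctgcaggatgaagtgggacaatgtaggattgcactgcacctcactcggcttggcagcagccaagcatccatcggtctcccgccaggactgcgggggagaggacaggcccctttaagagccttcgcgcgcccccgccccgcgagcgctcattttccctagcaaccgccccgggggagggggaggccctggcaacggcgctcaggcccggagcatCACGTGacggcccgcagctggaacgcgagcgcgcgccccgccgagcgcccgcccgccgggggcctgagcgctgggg
Cbx7 (chr15:79932597-79932896, minus strand): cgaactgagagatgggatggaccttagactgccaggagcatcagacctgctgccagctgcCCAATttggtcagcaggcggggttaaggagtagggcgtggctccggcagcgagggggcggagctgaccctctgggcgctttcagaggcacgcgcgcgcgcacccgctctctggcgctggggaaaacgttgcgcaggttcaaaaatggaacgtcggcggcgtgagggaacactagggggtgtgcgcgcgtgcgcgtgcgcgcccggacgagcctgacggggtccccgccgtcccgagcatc
The Cbx6 window held an E-box and no other match, and the Cbx7 window a CCAAT box. They held 31 and 33 CpG dinucleotides.

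The PHC proteins and SCMH1 carry the domain through which PRC1 complexes polymerise. Phc1 was at 13.9, 15.4 and 15.7 CPM in BN1, 19.8, 18.6 and 21.2 CPM in MA9 and 9.53, 8.34 and 7.95 CPM in ME, against 24.2, 27.9 and 26.02 CPM in WT. The 4 groups did not overlap, and the fall was largest in ME (-1.59 ± 0.10, adjusted p = 4e-14), followed by BN1 (-0.79 ± 0.09, adjusted p = 1.6e-08) and MA9 (-0.39 ± 0.09, adjusted p = 0.00049). Phc2, the most abundant of the family per kilobase in every group, was lower in BN1 (-0.29 ± 0.06, adjusted p = 5.5e-05) and not called in MA9 (-0.02) or ME (0.10). The ME difference was called higher without WT replicate 3 (adjusted p = 0.031) or ME replicate 3 (adjusted p = 0.046) and with upper-quartile scaling. Without division by exon length, Phc3 led the family in BN1 with 50.8%, against 39.4% for Phc2. The 2 genes were close in WT, at 42.6% and 42.5%, and Phc2 still led in MA9 (47.9%) and ME (52.3%). Phc3 was lower in MA9 (-0.32 ± 0.07) and ME (-0.22 ± 0.07), the ME call being lost without WT replicate 1 (adjusted p = 0.095), and it was not called in BN1 (0.07 ± 0.07), where it was called higher without the same library (adjusted p = 0.031). Scmh1 was at 22.0, 21.2 and 22.7 CPM in BN1, 29.7, 31.7 and 30.9 CPM in MA9 and 38.1, 37.6 and 37.7 CPM in ME, against 25.2, 24.5 and 31.6 CPM in WT. It was lower in BN1 (-0.30 ± 0.08, adjusted p = 0.0017) and higher in ME (0.48 ± 0.08, adjusted p = 4.5e-06). The MA9 libraries overlapped those of WT (0.18 ± 0.08, adjusted p = 0.039), and that call was lost without WT replicate 1 or 2 or MA9 replicate 2 or 3, with other size factors, with a stricter filter and with DESeq2 (adjusted p = 0.066 to 0.22).

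Ring1 and Rnf2 encode the ubiquitin ligases of PRC1, RNF2 being the stronger in mouse cells. Ring1 was at 28.5, 27.9 and 28.6 CPM in BN1, 33.4, 32.7 and 37.9 CPM in MA9 and 30.51, 29.0 and 29.6 CPM in ME, against 25.4, 25.3 and 25.6 CPM in WT, without overlap between any leukemia and WT. It was higher in MA9 (0.44 ± 0.07, adjusted p = 2.5e-06) and in ME (0.22 ± 0.07, adjusted p = 0.0066, lost with DESeq2 at 0.060). The BN1 call was marginal (0.16 ± 0.07, adjusted p = 0.049) and was lost without BN1 replicate 1 or 3 or without any WT library (adjusted p = 0.071 to 0.088), as with 5 other settings. Rnf2 was at 43.2, 44.6 and 39.9 CPM in BN1, 36.0, 39.9 and 32.9 CPM in MA9 and 33.6, 31.2 and 32.7 CPM in ME, against 43.1, 41.1 and 42.6 CPM in WT. It was lower in ME (-0.38 ± 0.07, adjusted p = 2.7e-05) and in MA9 (-0.22 ± 0.07, adjusted p = 0.0065), where the call was lost without MA9 replicate 3 (adjusted p = 0.071) and with upper-quartile scaling (0.062), while BN1 and WT overlapped (0.01 ± 0.07). Ring1 made up 52.3%, 61.1% and 60.1% of the pair's RNA per kilobase in BN1, MA9 and ME, against 49.7% in WT.

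PCGF proteins pair with the ligase and decide which form of PRC1 is built. PCGF2 is found in canonical complexes, PCGF1 in the complex with BCOR and KDM2B, PCGF3 and PCGF5 in related variant complexes, and PCGF6 in the complex with L3MBTL2. Pcgf2 was at 0.0823, 0.0450 and 0.115 CPM in BN1, 1.06, 1.55 and 2.04 CPM in MA9 and 0.435, 0.317 and 0.278 CPM in ME, against 2.89, 2.76 and 2.81 CPM in WT. BN1 held 6 counts in all, against 158 in WT, a ratio of 34.2-fold lower with a counting interval of 15.4 to 94.5. The fitted log2 fold change was -4.998 ± 0.43 (adjusted p = 2e-11) in BN1, -0.86 ± 0.27 (adjusted p = 0.0047) in MA9 and -3.01 ± 0.34 (adjusted p = 7.1e-09) in ME. Pcgf5 was at 72.5, 74.4 and 65.7 CPM in BN1, 47.3, 57.3 and 51.8 CPM in MA9 and 87.1, 83.2 and 92.3 CPM in ME, against 47.9, 44.0 and 44.1 CPM in WT. It was higher in ME (0.95 ± 0.07, adjusted p = 4.3e-13) and BN1 (0.64 ± 0.07, adjusted p = 1.5e-09), whereas MA9 replicate 1 fell within the WT range and the MA9 call (0.20 ± 0.07, adjusted p = 0.0093) was lost without MA9 replicate 2 (adjusted p = 0.097) and with other size factors, a stricter filter or DESeq2 (smallest adjusted p = 0.052). Pcgf6 was lower in all leukemias (-0.74 ± 0.13, -0.38 ± 0.13 and -0.78 ± 0.13 in BN1, MA9 and ME), the MA9 call being lost without MA9 replicate 3 (adjusted p = 0.060). Pcgf3 was lower in MA9 (-0.22 ± 0.08, adjusted p = 0.011, lost with upper-quartile scaling at 0.083 and with no low-count filter at 0.051) and not called in BN1 (0.08) or ME (0.01). Pcgf1 stood between 9.53 and 13.3 CPM in all libraries and was not called against WT, although in ME it was called lower without ME replicate 3 (adjusted p = 0.013) and with other size factors or a stricter filter.

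Bmi1, whose protein takes the same place in canonical PRC1 as PCGF2, is not one of the 34 genes. It was at 44.7 ± 3.9 CPM in BN1, 36.8 ± 1.7 CPM in MA9 and 39.9 ± 1.4 CPM in ME, against 25.1 ± 1.7 CPM in WT (SD, n = 3). Of the RNA of all 6 PCGF genes per kilobase, Bmi1 supplied 29.3%, 28.4% and 27.2% in BN1, MA9 and ME, against 20.2% in WT, and Pcgf2 supplied 0.0702%, 1.55% and 0.308%, against 2.96% in WT. Pcgf5 was the largest of the family per kilobase in ME alone, at 32.7%. Without division by exon length it was the largest in every group, at 44.3%, 40.2%, 52.1% and 38.2% in BN1, MA9, ME and WT.

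Among subunits of variant PRC1, Rybp and Yaf2 were both lower in BN1 and moved in opposite directions in MA9 and ME. Both proteins can fill the place that a CBX protein has in canonical PRC1. Rybp was lower in all leukemias (-0.41 ± 0.07 in BN1, -0.76 ± 0.07 in MA9 and -0.40 ± 0.07 in ME; largest adjusted p = 2.2e-05). Yaf2 was at 23.0, 23.1 and 23.7 CPM in BN1, 36.8, 41.3 and 41.5 CPM in MA9 and 39.9, 40.9 and 38.0 CPM in ME, against 33.6, 35.3 and 33.5 CPM in WT. BN1 lay below WT (-0.55 ± 0.07, adjusted p = 4.2e-08), and MA9 (0.23 ± 0.07, adjusted p = 0.0033) and ME (0.22 ± 0.07, adjusted p = 0.0048) lay above it without overlap. Yaf2 made up 56.9% of the pair's RNA per kilobase in BN1, 74.3% in MA9 and 69.0% in ME, against 59.4% in WT.

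Kdm2b, Bcor and L3mbtl2, which encode other subunits of variant PRC1, were higher in every leukemia. Kdm2b, whose protein recognises unmethylated CpG islands, was at 67.8 ± 1.6 CPM in BN1, 94.6 ± 4.3 CPM in MA9 and 78.6 ± 2.3 CPM in ME, against 54.4 ± 0.54 CPM in WT (SD, n = 3), with log2 fold changes of 0.32, 0.80 and 0.53 (largest adjusted p = 4.4e-06). It shares 627 bases of exon with Rnf34 on the opposite strand. Bcor, a corepressor gene on the X chromosome, was at 139, 141 and 152 CPM in BN1, 193, 188 and 192 CPM in MA9 and 145, 152 and 135 CPM in ME, against 91.4, 99.96 and 99.2 CPM in WT. Its log2 fold change was 0.57, 0.98 and 0.57 (SE 0.05 each; largest adjusted p = 8.9e-11). MA9, the highest group, was also the group with low Xist and with RNA of Y-linked genes, as given for Rbbp7. L3mbtl2 was higher by 0.51, 0.82 and 0.79 in BN1, MA9 and ME on the log2 scale (SE 0.07 each; largest adjusted p = 8.4e-08).

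The deubiquitinase BAP1 removes the PRC1 mark with ASXL1 or ASXL2 as its partner. Asxl1, a frequent target of mutation in human myeloid disease, was at 160 ± 3.0 CPM in BN1, 135 ± 3.6 CPM in MA9 and 138 ± 1.6 CPM in ME, against 196 ± 6.1 CPM in WT (SD, n = 3), and fell by 0.29, 0.53 and 0.50 on the log2 scale (largest adjusted p = 7.5e-07). Asxl2 was higher in BN1 (0.34 ± 0.05, adjusted p = 9.5e-07) and not called in MA9 (0.08) or ME (-0.06), although upper-quartile scaling made the MA9 difference a call (adjusted p = 0.009) and other size factors or a stricter filter the ME difference (adjusted p = 0.042). Bap1 was lower in MA9 (-0.23 ± 0.06, adjusted p = 0.00067) and ME (-0.23 ± 0.06, adjusted p = 0.0008) and not called in BN1 (-0.09 ± 0.06, adjusted p = 0.15), where it was called lower without WT replicate 1 (adjusted p = 0.013) and with other size factors or a stricter filter.

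**Figure D4:**
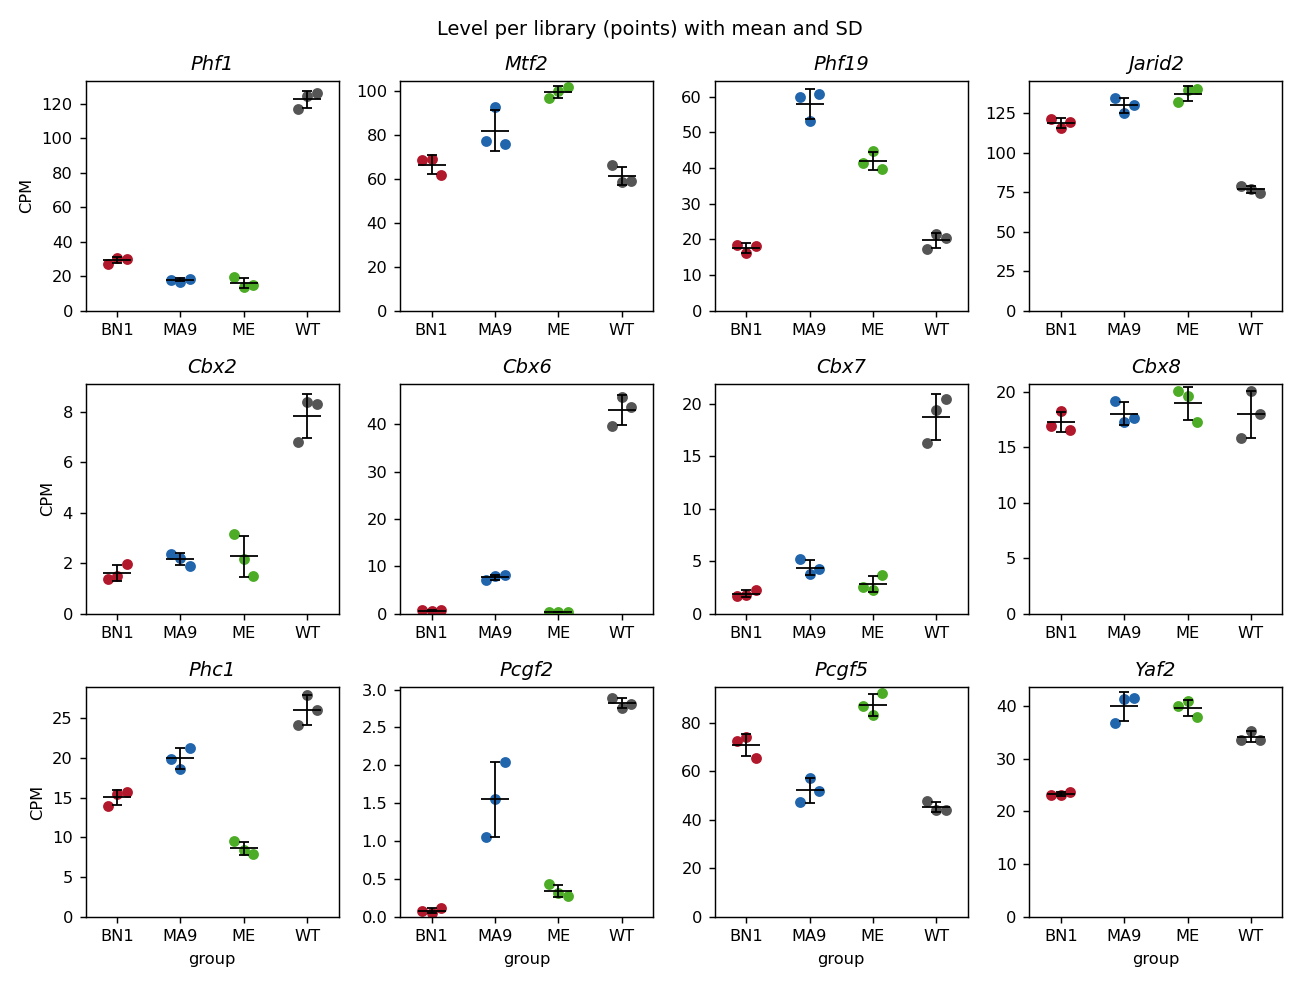
Level in CPM of 12 Polycomb genes in each library (points), with the mean and SD of each group, for BN1, MA9, ME and WT from left to right. Phf1, Cbx2, Cbx6 and Cbx7 are low in all leukemia libraries, Phf19 is high in the MA9 and ME libraries alone, Cbx8 overlaps in all groups, and Yaf2 lies below WT in BN1 and above it in MA9 and ME.

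Between the leukemias, BN1 differed from the MLL-fusion leukemias in most Polycomb genes, as it did in most of all tested genes. Against MA9, 11 genes were higher and 20 lower in BN1 (91.2%, against 67.7% of all genes, 32.8% higher and 34.9% lower), with a median log2 fold change of -0.28 beside -0.01 for all genes. Against ME, 10 were higher and 16 lower in BN1 (76.5%, against 64.7% of all genes, 31.8% higher and 33% lower), with a median of -0.15 beside -0.01. MA9 against ME gave 12 higher and 6 lower (52.9%, against 40.6% of all genes, 20.2% higher and 20.4% lower), with a median of 0.07 beside 0. Without ME replicate 2, 7 genes were higher in MA9. In size regardless of sign, the median was 0.36, 0.30 and 0.15 on the log2 scale for the 34 genes in these comparisons, beside 0.48, 0.44 and 0.23 for all genes. The groups did not overlap for 31, 28 and 19 of the 34, where 70.1%, 66.9% and 48.6% of all genes did not. The first 2 comparisons share the BN1 libraries.

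BN1 had less RNA than both MLL-fusion leukemias for several genes. Phf19 was lower by the widest margin among PRC2 genes, with log2 fold changes of -1.72 ± 0.08 against MA9 (adjusted p = 7.4e-17) and -1.26 ± 0.08 against ME (adjusted p = 1.5e-13). Against MA9 and ME in that order, log2 fold changes were -0.77 and -0.63 for Rbbp7, -0.54 and -0.40 for Rbbp4, -0.42 and -0.30 for Suz12, and -0.30 and -0.58 for Mtf2 (largest adjusted p = 0.00032). Yaf2 (-0.78 and -0.77) and Scmh1 (-0.49 and -0.78) were also lower in BN1, as was Pcgf2, with 6 counts in BN1, 99 in MA9 and 21 in ME. The proliferation genes were lower in BN1 in the same comparisons, with 19 of 20 called against MA9 and 20 of 20 against ME, and neutrophil markers were higher in BN1, with 10 of 10 called against MA9 and 9 of 10 against ME. Monocyte markers gave 5 higher and 3 lower of 10 against MA9 and 6 and 2 against ME, and primary granule genes 4 higher and 1 lower of 5 in each. The part of these genes' cell types in the differences was not tested.

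BN1 had more Phf1 than either, by 0.72 ± 0.09 against MA9 (adjusted p = 9.2e-08) and 0.88 ± 0.09 against ME (adjusted p = 4.3e-09). Eed (0.32 and 0.22), Rnf2 (0.23 and 0.39), Phc3 (0.39 and 0.29), Asxl1 (0.24 and 0.21) and Asxl2 (0.26 and 0.40) were higher in BN1 than in MA9 and ME as well (largest adjusted p = 0.0053). The Rnf2 call against MA9 was lost without MA9 replicate 3 (adjusted p = 0.054). Differences in the enzyme genes were small. Ezh2 was lower in BN1 than in MA9 (-0.15 ± 0.06, adjusted p = 0.026) and ME (-0.17 ± 0.06, adjusted p = 0.018). The call against MA9 was lost without BN1 replicate 1 or 3 or MA9 replicate 2 and with DESeq2 (adjusted p = 0.052 to 0.22), and that against ME without BN1 replicate 3 or ME replicate 3 (0.087 and 0.22). Ezh1 was higher in BN1 than in MA9 (0.14 ± 0.06, adjusted p = 0.037), a call lost without BN1 replicate 3 or MA9 replicate 1 or 3, with upper-quartile scaling and with no low-count filter (adjusted p = 0.071 to 0.11).

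MA9 and ME, which carry fusions of the same gene, differed most in Cbx6. MA9 held 489 counts of Cbx6 and ME 23, a ratio of 20.3 with a counting interval of 13.4 to 32.3, and the fitted log2 fold change was 4.32 ± 0.20 (adjusted p = 2.9e-16). Pcgf2 (2.15 ± 0.37, adjusted p = 2.1e-05), Phc1 (1.21 ± 0.10, adjusted p = 1.1e-10), Phf19 (0.46 ± 0.08, adjusted p = 1.2e-05) and Bcor (0.41 ± 0.05, adjusted p = 1.5e-07) were higher in MA9 too. Pcgf5 (-0.74 ± 0.07, adjusted p = 2.4e-10), Rybp (-0.36 ± 0.08, adjusted p = 0.00031) and Mtf2 (-0.28 ± 0.07, adjusted p = 0.0013) were lower in MA9 than in ME. Cbx7 was higher in MA9 (0.65 ± 0.19, adjusted p = 0.0063), a call lost without ME replicate 2 (adjusted p = 0.053). BN1 stood far below MA9 in Cbx6 (-3.50 ± 0.17, adjusted p = 2.7e-16) and Cbx7 (-1.20 ± 0.19, adjusted p = 4.5e-06). Against ME the BN1 values were close to the threshold for Cbx6 (0.82 ± 0.32, adjusted p = 0.03) and Cbx7 (-0.54 ± 0.21, adjusted p = 0.026). The Cbx6 call was lost without BN1 replicate 1 or 3 or ME replicate 2 or 3, with DESeq2, limma-voom and no low-count filter, and when the 2 groups were fitted alone (adjusted p = 0.054 to 0.11). The Cbx7 call was lost without BN1 replicate 1 or 2 or ME replicate 3, with limma-voom and when the 2 groups were fitted alone (adjusted p = 0.051 to 0.22).

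Further genes of the same pathway were listed for comparison. Of 32 other Polycomb genes in the table, all of them tested, 15 were higher and 12 lower in BN1 against WT, 13 and 10 in MA9, and 16 and 13 in ME. These are 84.4%, 71.9% and 90.6% of the list, beside 79.2%, 80.1% and 79.2% of all tested genes. L3mbtl1, which encodes a reader of methylated histones, was at 9.77 ± 1.3 CPM in BN1, 4.43 ± 0.39 CPM in MA9 and 12.1 ± 0.31 CPM in ME, against 1.93 ± 0.41 CPM in WT (SD, n = 3). L3mbtl3, its relative, stood at 90.3 ± 2.4 CPM in BN1, 32.9 ± 1.4 CPM in MA9 and 15.2 ± 1.0 CPM in ME, against 34.7 ± 1.2 CPM in WT, so that it was higher in BN1 (1.38, adjusted p = 8.9e-18) and lower in ME (-1.19, adjusted p = 9.5e-15). Scml2, an X-linked relative of Scmh1, had 466 counts in BN1, 4 in MA9 and 1 in ME, against 138 in WT. Scml4 fell to 6, 33 and 15 counts in BN1, MA9 and ME, against 992 in WT, and Sfmbt2 to 2, 162 and 14, against 382 in WT. Tfdp2, a dimerisation partner of E2F proteins, was at 23.9 ± 1.2 CPM in BN1, 39.6 ± 1.2 CPM in MA9 and 24.8 ± 1.0 CPM in ME, against 167 ± 12 CPM in WT.

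Of 7 tested partners of BAP1, 3 were higher and 3 lower in BN1, 2 and 3 in MA9, and 3 and 3 in ME. That is 85.7%, 71.4% and 85.7% of the 7, beside 79.2%, 80.1% and 79.2% of all tested genes. Ogt, the X-linked gene of the enzyme that attaches N-acetylglucosamine to proteins, was lower in each (-1.04, -1.20 and -1.26 in BN1, MA9 and ME; largest adjusted p = 6.2e-17). Of 9 enzymes that oppose Polycomb marks, 3 were higher and 6 lower in BN1, and 1 was higher and 8 lower in MA9 and in ME. Of all tested genes, 40.8%, 40.8% and 40.2% were called lower in BN1, MA9 and ME. Kdm6b, which removes H3 lysine 27 methylation, was at 127 ± 7.4 CPM in BN1, 55.2 ± 4.0 CPM in MA9 and 61.2 ± 3.6 CPM in ME, against 199 ± 5.6 CPM in WT (SD, n = 3). Kdm6a, its X-linked relative, was lower with log2 fold changes of -0.69, -1.18 and -0.64. MA9, where Kdm6a fell most, was also the group with low Xist and with RNA of Y-linked genes, as given for Rbbp7. The part of the X chromosome in the Kdm6a and Ogt values was not tested. Mysm1, which removes ubiquitin from H2A, was higher in BN1 (1.05, adjusted p = 4.6e-15) and lower in MA9 (-0.23, adjusted p = 0.0023) and ME (-0.29, adjusted p = 0.00026).

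A list of 40 genes known as Polycomb targets in other mouse cells was looked up as well, and 7 of them had enough counts to be tested. Of these, 4 were higher and 1 lower in BN1 against WT, 4 and 1 in MA9, and 3 and 1 in ME, which is 71.4%, 71.4% and 57.1% beside 79.2%, 80.1% and 79.2% of all genes. Cdkn2a, the tumour suppressor locus that PRC1 keeps silent in blood progenitors, was at 4.13 ± 0.44 CPM in BN1, 13.7 ± 0.47 CPM in MA9 and 13.7 ± 0.53 CPM in ME (SD, n = 3), with 298, 871 and 833 counts, against 7 counts in WT. Gata4 was detected at 4.60 ± 0.68 CPM in MA9, with 0 counts in BN1, 1 in ME and 0 in WT. Eomes, a transcription factor gene expressed in some T and NK cells, was the gene called lower, with 0 counts in BN1, 0 in MA9 and 3 in ME, against 422 in WT. These genes were not chosen for binding in the cells studied, and no histone marks were measured here.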

How the data were processed

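Polyadenylated RNA from 12 marrow samples was sequenced as TruSeq stranded libraries, per the labels. The authors deposited raw counts per gene, made with HISAT2 on mm10 and featureCounts, per the submitters' processing notes, which also name DESeq2. The sources used here do not give versions, annotation or strand use. The members and the lists of other genes were chosen with earlier results of these data known.

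Genes were filtered with filterByExpr, which kept 15334 of 35976, and scaled with TMM. One quasi-likelihood model without covariates was fitted to all 12 libraries in edgeR 4.0.16 (R 4.3.3, limma 3.58.1, DESeq2 1.42.0), and p-values were adjusted by Benjamini-Hochberg over all genes and called under 0.05. The biological coefficient of variation was 5.87%. CPM use TMM library sizes. Levels per kilobase divide CPM by the union of exons in GENCODE M21. Members with at least 2-fold change from WT, or a log2 fold change of 0.5 between leukemias, without overlap of groups are given by library, as are Ezh1, Ezh2, Eed, Suz12, Ring1 and Rnf2. From the other lists, up to 4 called genes per direction with at least 1 CPM were eligible to be named. Counting intervals cover counting error only. Some genes of these lists are not reported here. The method was tested on simulated data. Alternatives were other scaling, filters and tools, 2-group fits, a block for replicate number, a minimum fold and each library left out.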

Additional observations from a re-analysis of the deposited data

Results flagged for a closer look

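Yaf2 and Scmh1 stood out because BN1 departed from WT in one direction and MA9 and ME in the other, and because the leukemias differed when tested directly. Yaf2 was lower in BN1, with log2 fold changes of -0.78 against MA9 (adjusted p = 5.9e-11) and -0.77 against ME (adjusted p = 9.2e-11), with all 3 BN1 libraries below all others. Scmh1 was lower in BN1, with -0.49 against MA9 (adjusted p = 6e-06) and -0.78 against ME (adjusted p = 1.5e-09). Its rise in MA9 against WT was lost without WT replicate 1 or 2 or MA9 replicate 2 or 3 and with 3 other settings (adjusted p = 0.066 to 0.22), so that the opposite direction rests on ME.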

How the results depend on the processing

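Of 2448 log2 fold changes of the 34 genes in fits that left out 1 library, 2376 kept their side of the threshold, 57 lost a call and 15 gained one. Over all alternative settings, 57 of 4277 values changed sign, in 16 gene comparisons. These were called in neither fit and were at most 0.092 in size on the log2 scale in the main fit. No called value reversed in any fit. In all, 41 of the gene comparisons changed side in at least 1 setting (27 lost, 14 gained a call), with a log2 fold change of at most 0.82, leaving aside the test against a minimum fold. Other scaling shifted the median of all genes by at most 0.074 on the log2 scale. Leaving out each library gave 21 to 25 called genes in BN1 against WT, 27 to 30 in MA9 against WT, 28 to 31 in ME against WT, 28 to 32 in BN1 against MA9, 23 to 26 in BN1 against ME and 13 to 19 in MA9 against ME, where the number higher ran from 7 to 13. Samples that carry the same replicate number did not deviate together (18 correlations of -0.081 to 0.062), so the number was not taken as a pairing. With the replicate block, 203 of 204 gene values kept their call, and BN1 against WT gave 21 called genes. Within the groups, ME replicate 3 stood apart from the other libraries. A mean chi-square per gene, which grows as the counts of 2 libraries differ, was 32.3 and 35.2 against ME replicates 1 and 2. Every other pair within a group had at most 7.51.

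Testing against a change of 1.5-fold left 6 called genes in BN1 against WT (0 higher, 6 lower), 13 in MA9 against WT (7 higher, 6 lower), 12 in ME against WT (5 higher, 7 lower), 6 in BN1 against MA9 (0 higher, 6 lower), 6 in BN1 against ME (2 higher, 4 lower) and 4 in MA9 against ME (3 higher, 1 lower), since small changes cannot pass it. Of all tested genes, 46% passed in BN1 against WT (18.9% higher, 27.1% lower), 47.8% in MA9 against WT (20.5% and 27.3%), 46.4% in ME against WT (19.4% and 27%), 28.4% in BN1 against MA9 (13.4% and 15%), 25.4% in BN1 against ME (13% and 12.4%) and 11.9% in MA9 against ME (6.66% and 5.28%). Family shares without division by exon length, given as percent in BN1, MA9, ME and WT, were 67.5, 71.7, 68.6 and 64.9 for Ezh2, 31.8, 35.4, 35.3 and 32.8 for Rbbp7, 25.8, 11.3, 10.1 and 60.2 for Phf1, and 67.6, 65.2, 67.9 and 57.9 for Jarid2. They were 9.77, 13.03, 5.67 and 14.9 for Phc1, 40.0, 48.9, 47.8 and 37.6 for Ring1, 61.5, 56.1, 68.3 and 48.4 for Pcgf5, 33.0, 51.9, 45.3 and 35.3 for Yaf2, and 61.5, 61.8, 64.6 and 71.3 for Asxl1. Phf19 had 9.67 in WT, and Cbx8 had 55.9 in MA9 and 20.49 in WT. Pcgf2 was too low to be tested with a minimum of 5 CPM in 3 libraries. It had 6 counts in BN1, so its fold there is the least precise of the values given.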
